A study of Glycine max with 2 samples.

Results

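Glyma.08G317600 and Glyma.U028100, a pair of soybean genes of the MYB transcription factor family, were followed in bisulfite sequencing data of flower buds from a cytoplasmic male-sterile (CMS) line and its maintainer. The study describes Glyma.08G317600 as MYB97 and Glyma.U028100 as MYB98, and lists both among 8 genes potentially related to CMS. They were 2 of the 485 differentially methylated genes (DMGs) in the deposited annotation, in which a DMG is a gene whose promoter, UTR, exon or intron overlaps a differentially methylated region (DMR). Each had 1 DMR, which was annotated to its promoter, the 2 kb before the transcription start site, and to no other gene. The deposited tables carry gene identifiers without descriptions, so the MYB names are those of the study and could not be checked against the files.

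NJCMS5A is the CMS line, whose anthers give no functional pollen. NJCMS5B is the fertile line Wandou28, which maintains the sterility and was crossed again and again to offspring of the sterile line NJCMS1A until NJCMS5A was obtained. From each line, flower buds of mixed sizes were pooled at the full-bloom stage and 1 whole-genome bisulfite library was made, so 2 libraries were compared with no replicates. A pool of buds mixes anthers, ovules, petals and sepals, and a difference in methylation per cell could not be told apart from a difference in the share of each tissue. The tissue label could not be checked from methylation levels.

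MYB proteins of the R2R3 type bind DNA through a pair of helix-turn-helix repeats and regulate transcription. In Arabidopsis, MYB97 acts in the pollen tube together with its relatives MYB101 and MYB120, and these factors are needed for the tube to mature and to release its sperm cells in the ovule. Arabidopsis MYB98 acts on the female side, in the synergid cells of the embryo sac, where it is needed to form the filiform apparatus and to attract pollen tubes. In plants, cytosines are methylated in the CG, CHG and CHH contexts, in which H is any base but G, and the contexts are kept by different methyltransferases. Bisulfite converts unmethylated cytosines to uracil, and a level gives the percentage of cytosine calls that resisted this conversion. The deposited levels pool the 3 contexts, and levels by context were not analysed here.

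A region was also amplified for each gene in the study by nested PCR after bisulfite treatment. The inner primers are shown because they mark the region that was cloned for each gene, and because their letters show the conversion that the levels rest on. The forward primers hold no cytosine and the reverse primers no guanine, as they match fully converted DNA. The primers of Glyma.U028100 each have 1 mixed base, for a cytosine that may be methylated, and are shown up to or after it. All are written 5′ to 3′.
Glyma.08G317600 inner forward: aagtagtaattagatattgatgataaatag
Glyma.08G317600 inner reverse: cttaatttccatctcctcaccctaaa
Glyma.U028100 inner forward, last 22 bases: attgattggaaggtaaagatga
Glyma.U028100 inner reverse, first 17 bases: tttaccaatcctaccat
The amplified region of Glyma.08G317600 lay inside the DMR of its promoter. The amplified region of Glyma.U028100, by the position given with its primers, lay outside the DMR of its promoter, at lower coordinates on the same scaffold. Levels of the clones were not used here.

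Both MYB promoters were hypo-methylated in NJCMS5A. The DMR of Glyma.08G317600 lay on chromosome 8 at positions 43714800 to 43715774 of the Williams 82 genome, with gene models of release Wm82.a2.v1. It was 975 bp long and held 167 counted cytosine sites, which need not be all the cytosines of its sequence. Its methylation level was 7.86% in NJCMS5A (95% Wilson interval 6.84 to 9.02, 184 of 2341 calls, mean depth 14.02) and 18.0% in NJCMS5B (16.5 to 19.7, 398 of 2211 calls, mean depth 13.2). The intervals did not overlap, and the level was 10.1 percentage points lower in NJCMS5A (difference −10.1, interval −12.1 to −8.21), or 2.29-fold lower. On the odds scale the log2 ratio was −1.36 with an SE of 0.14, and the adjusted p of Fisher's exact test was 1.1e-24.

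The DMR of Glyma.U028100 lay on scaffold_27 at positions 335203 to 336302, was 1100 bp long and held 169 cytosines. Its methylation level was 3.86% in NJCMS5A (95% Wilson interval 3.12 to 4.77, 81 of 2098 calls, mean depth 12.4) and 15.8% in NJCMS5B (14.1 to 17.5, 279 of 1769 calls, mean depth 10.5). The intervals again did not overlap. The level was 11.9 points lower in NJCMS5A (difference −11.9, interval −13.83 to −10.05), or 4.09-fold lower, with a log2 odds ratio of −2.22, an SE of 0.19 and an adjusted p of 1.1e-37 by Fisher's exact test.

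These tests compare the 2 libraries, not the 2 lines, because no second library measures the spread between plants. Their intervals cover counting error only, and they treat all calls as independent. Neighbouring cytosines were often read in one fragment, so the intervals can be too narrow and the p-values too small. The table holds only regions that the authors had already called as different. All 3527 DMRs, 100%, passed the test here, and 55.8% of them (1967) passed it as lower in NJCMS5A. Of the 374 DMRs that overlap a promoter, 63.4% (237) were lower in NJCMS5A. Both MYB promoters being lower is therefore read only as a description of this pair.

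**Figure D1:**
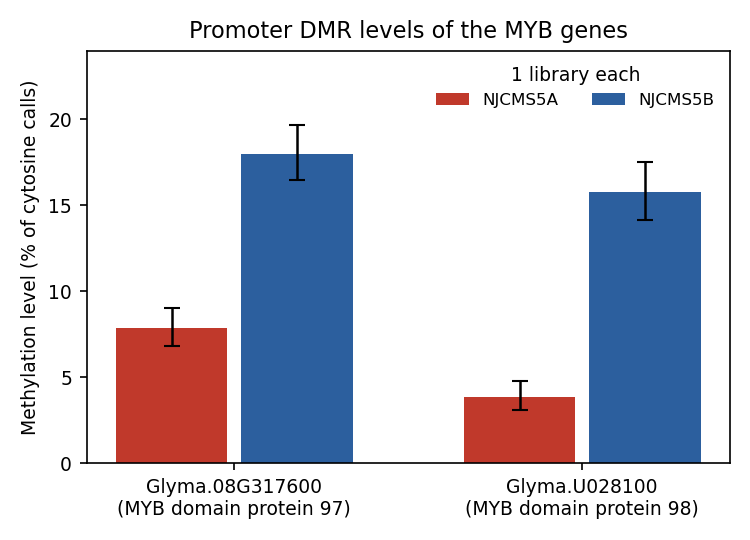
Methylation level (percent of cytosine calls) of the promoter DMR of each MYB gene in NJCMS5A and NJCMS5B, 1 library each. Error bars are 95% Wilson intervals, which cover counting error only. NJCMS5A lies at 7.86% and 3.86%, below NJCMS5B at 18.0% and 15.8%.

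The 2 genes were then set against each other. In NJCMS5A the level was lower at Glyma.U028100 than at Glyma.08G317600 (difference −3.999 points, interval −5.38 to −2.63). In NJCMS5B the 2 promoters were closer, with a difference of −2.23 points whose interval ran from −4.55 to 0.12. The relative change between libraries was larger at Glyma.U028100, by −0.86 in log2 odds ratio (SE 0.23, Woolf interval −1.31 to −0.40, Zelen's exact test p = 2.5e-04). This call was lost when each cytosine was counted once (−0.76, interval −2.35 to 0.83, Zelen exact p = 0.42) and when the calls were divided by 10 (−0.84, interval −2.29 to 0.61, Zelen exact p = 0.32). In percentage points the changes differed by −1.77 with an SE of 1.38 (interval −4.47 to 0.94), so on that scale no difference between the genes was detected.

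Among the 237 promoter DMRs that were lower in NJCMS5A, the 2 MYB promoters held different places. The median levels of these DMRs were 4.77% in NJCMS5A and 19.1% in NJCMS5B. Glyma.U028100 lay under the median in both libraries, with 100 of the 237 below it in NJCMS5A and 68 below it in NJCMS5B. Glyma.08G317600 had a higher level in NJCMS5A than most of them, since 175 of the 237 lay below it. In NJCMS5B it lay close to the median, with 110 below it. Levels of different regions, those of the 2 MYB promoters included, can also depend on their mix of CG, CHG and CHH sites, which was not analysed.

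By the size of the difference, Glyma.08G317600 stood close to the lower limit of the table. The smallest difference of any DMR was 10 points, and 14 of the 237 promoter DMRs, or 84 of all 3527 DMRs, had a smaller one than the 10.1 points of Glyma.08G317600. No DMR of the table differed by less than 2-fold either, so the fold changes given here are also bounded from below. The 11.9 points of Glyma.U028100 exceeded the difference of 102 of the 237. Its 4.09-fold change was near their median of 4.21-fold, and the 2.29-fold change of Glyma.08G317600 was under it.

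The 2 DMRs resembled each other in size. Their 975 and 1100 bp were both under the median length of 1574 bp of the 237 promoter DMRs, and their 167 and 169 cytosines under the median of 311. With 17.1 counted cytosines per 100 bp at Glyma.08G317600 and 15.4 at Glyma.U028100, both also had fewer counted sites than the median of 19.4. Over all DMRs this density reached 140 per 100 bp, so it is not the base content of the sequence. Depth differed more: both libraries covered Glyma.08G317600 more deeply than the medians of 11.7 in NJCMS5A and 11.3 in NJCMS5B, while Glyma.U028100 was above the median in NJCMS5A and below it in NJCMS5B. Whether depth had a part in the levels was not tested.

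**Figure D2:**
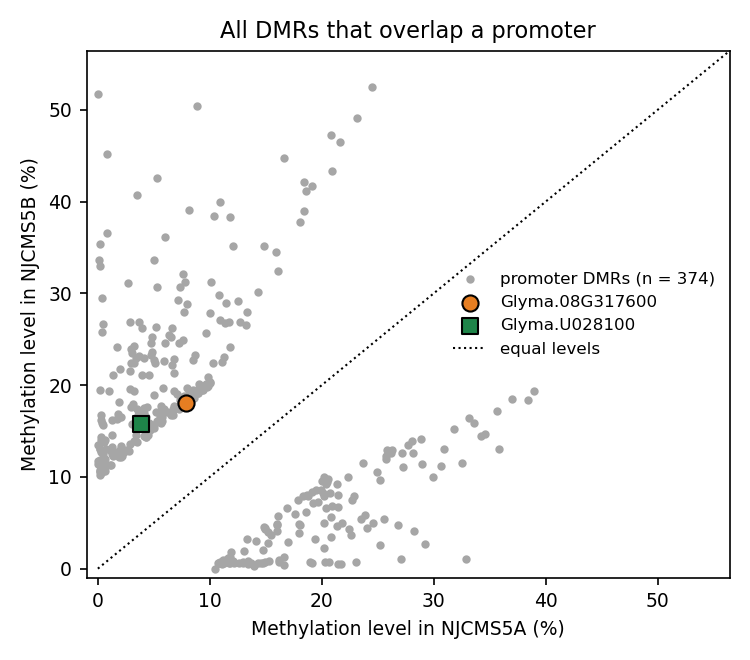
Methylation level in NJCMS5A (x axis, percent) against NJCMS5B (y axis, percent) for the 374 DMRs that overlap a promoter, with the 2 MYB genes marked and a dotted line for equal levels. The empty band along the line holds no DMR because every listed one differed by at least 10 points and at least 2-fold. Glyma.08G317600, with 10.1 points, sits at the edge of the band.

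Other promoters had nearly the same pair of levels as each MYB gene, by the distance in the plane of both levels over the 2 libraries. The promoter DMR most like that of Glyma.08G317600 was that of Glyma.10G111600, with 8.19% in NJCMS5A and 18.3% in NJCMS5B, at a distance of 0.41 points. The levels of Glyma.10G111600 are those of a DMR that also overlapped its 5′UTR and exon. Next were Glyma.08G183300, also on chromosome 8, with 7.44% in NJCMS5A and 17.8% in NJCMS5B, and Glyma.05G061500, with 7.35% in NJCMS5A and 17.8% in NJCMS5B. All 3 are genes of chromosomes, as Glyma.08G317600 is.

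The promoter DMR most like that of Glyma.U028100 was that of Glyma.U023800 on scaffold_22, with 4.57% in NJCMS5A and 15.8% in NJCMS5B, at a distance of 0.72 points. The DMR of Glyma.U023800 also overlapped its 5′UTR, exon and intron. Glyma.U030800 on scaffold_28 followed with 3.05% in NJCMS5A and 15.8% in NJCMS5B, and Glyma.U013900 on scaffold_21 with 4.18% in NJCMS5A and 15.0% in NJCMS5B. The DMR of Glyma.U013900 had a depth of 58.2 in NJCMS5A against 15.0 in NJCMS5B, so its levels rest on coverage that differed between the libraries. These 3 genes lie on unplaced scaffolds, like Glyma.U028100.

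The surroundings of the 2 genes were unlike, as chromosomes and scaffolds were at large. Of all 3527 DMRs, 311 lay on chromosomes and 3216 on scaffolds, so the contrast is not particular to these genes. On chromosome 8 the DMR of Glyma.08G317600 stood alone, with no other DMR within 100 kb on either side. The chromosome carried 21 DMRs, of which 66.7% (14) were lower in NJCMS5A. The nearest, at positions 42363309 to 42364599 and 1.35 Mb below, overlapped the promoter of Glyma.08G305500 and was also hypo-methylated, with 5.72% in NJCMS5A and 16.1% in NJCMS5B. The nearest above, at positions 46320469 to 46321460 and 2.60 Mb away, was annotated to no gene and had 5.20% in NJCMS5A and 15.4% in NJCMS5B.

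On scaffold_27 the DMR of Glyma.U028100 lay in a dense field of DMRs. The scaffold carried 84, of which 56% (47) were lower and 37 higher in NJCMS5A. Within 50 kb of the MYB gene there were 22, its own included, 15 lower and 7 higher, and within 100 kb there were 46, of which 28 were lower and 18 higher. Hypo- and hyper-methylated regions thus lay side by side around this gene.

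Just beyond the promoter DMR, 205 bp further up the coordinates, a DMR of 96 cytosines at positions 336508 to 337002 had a level of 2.54% in NJCMS5A (1.79 to 3.61) and 13.6% in NJCMS5B (11.5 to 16.1). Another, 100 bp further at positions 337103 to 338199, held 357 cytosines and had 9.85% in NJCMS5A (9.002 to 10.8) and 20.6% in NJCMS5B (19.3 to 21.9). Neither was annotated to a gene. With their calls added up, a step chosen after their values were seen, the 3 DMRs spanned 2997 bp and 622 cytosines, with a level of 7.07% in NJCMS5A (6.52 to 7.67) and 18.2% in NJCMS5B (17.3 to 19.2), a difference of −11.2 points. The next 2 DMRs up the coordinates were thus lower in NJCMS5A too, while the stretches of 205 and 100 bp between the DMRs were not called. Each of the 3 had to differ by at least 10 points to be listed, which bears on their joint difference.

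The DMR that starts at position 336508 was annotated neither to the promoter nor to the body of Glyma.U028100. If the annotation lists every overlap, the gene lies at lower coordinates than its promoter DMR. No gene model was at hand to check this. With a promoter of 2 kb, the transcription start would then lie between positions 333203 and 334507. The edge of the DMR that faces the gene would lie 696 to 2000 bp before it. The position given with the primers of this gene lay below this range of starts. The study lists that position with the whole-genome ratio and difference of this promoter DMR, so it tied the cloned region to this DMR. Whether that position or the annotated one is right could not be settled. For Glyma.08G317600 no neighbouring DMR limited the position of the start, so the distance was not derived.

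The next annotated DMR below, 7302 bp away at positions 326005 to 327900, overlapped the promoter, 5′UTR, exon and intron of Glyma.U028000 and was listed with the 5′UTR of Glyma.13G296100 and Glyma.19G154300 as well, whose identifiers name chromosomes and not this scaffold. Its level was 0.743% in NJCMS5A and 13.0% in NJCMS5B. The next annotated DMR above, 12304 bp away at positions 348607 to 350596, overlapped the promoter of Glyma.U028200 and went the other way, with 15.0% in NJCMS5A and 4.34% in NJCMS5B. From the DMR of Glyma.U028000 upwards, 5 DMRs in a row were lower in NJCMS5A, from position 326005 to 346299 over 20295 bp. No run of lower DMRs on scaffold_27 was longer, and the longest run of higher DMRs was 3. Of the 5 DMRs, 3 are the close neighbours joined above. Whether such a run is longer than 47 lower DMRs among 84 would give in random order was not tested.

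**Figure D3:**
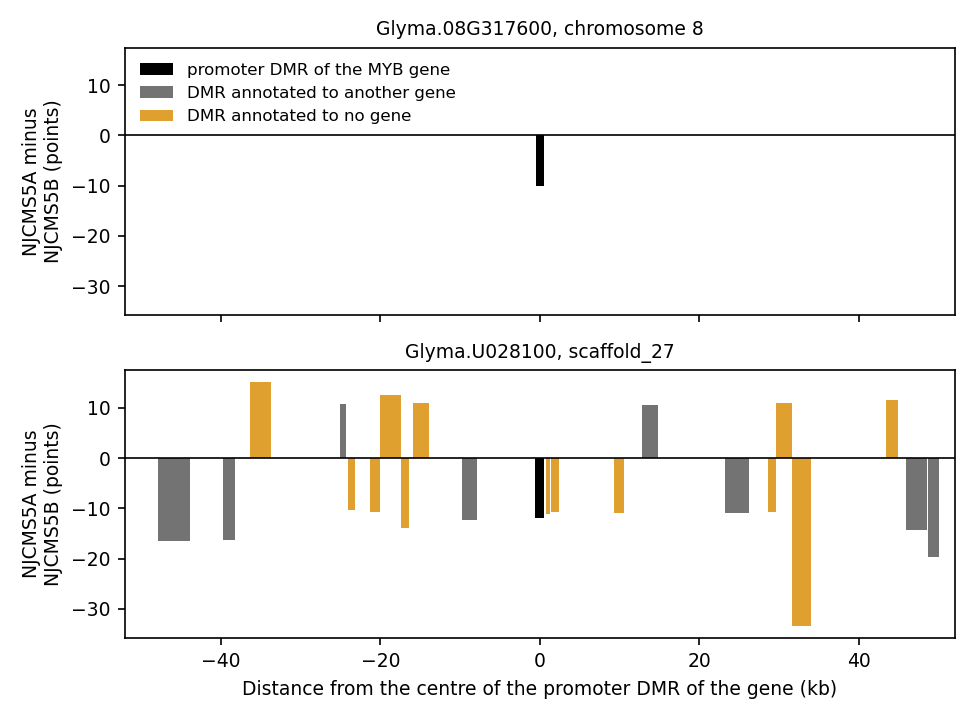
Difference in methylation level (NJCMS5A minus NJCMS5B, percentage points) of each DMR within 50 kb of the centre of the promoter DMR of Glyma.08G317600 (top) and Glyma.U028100 (bottom), by distance in kb. Black bars are the MYB promoters, grey bars DMRs annotated to other genes and orange bars DMRs annotated to no gene. There is 1 DMR in the top panel and 22 in the bottom panel, 15 lower and 7 higher in NJCMS5A.

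In the deposited Gene Ontology (GO) table of 1242 terms, which covers 334 of the DMGs, both MYB genes were listed under the same 2 terms, binding and chromatin binding. Binding held 220 of the 334 DMGs and 23388 of 38033 background genes. Chromatin binding held 4 of the DMGs, 1.198%, against 828 background genes, 2.18%. Neither gene was listed under regulation of transcription, DNA-dependent, and neither was in the deposited table of KEGG pathways.

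The other 2 DMGs of chromatin binding were Glyma.U027500 and Glyma.U038900. Glyma.U027500 lies on scaffold_27, as Glyma.U028100 does, and had 6 DMRs, 3 higher and 3 lower in NJCMS5A. The one that reached its promoter, at positions 228080 to 231357, had 17.9% in NJCMS5A and 3.91% in NJCMS5B, the direction opposite to the MYB promoters. The single DMR of Glyma.U038900, on scaffold_44 at positions 112172 to 114030, covered its exon, intron and UTRs but not its promoter, and had 0.282% in NJCMS5A and 10.9% in NJCMS5B. Of the 4 genes, only the 2 MYB genes had a hypo-methylated promoter and no other DMR. The pair was chosen for its promoter DMRs, and such promoters were common. Of all 330 DMGs with a promoter DMR, 193 had promoter DMRs that were lower only in NJCMS5A.

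**Figure D4:**
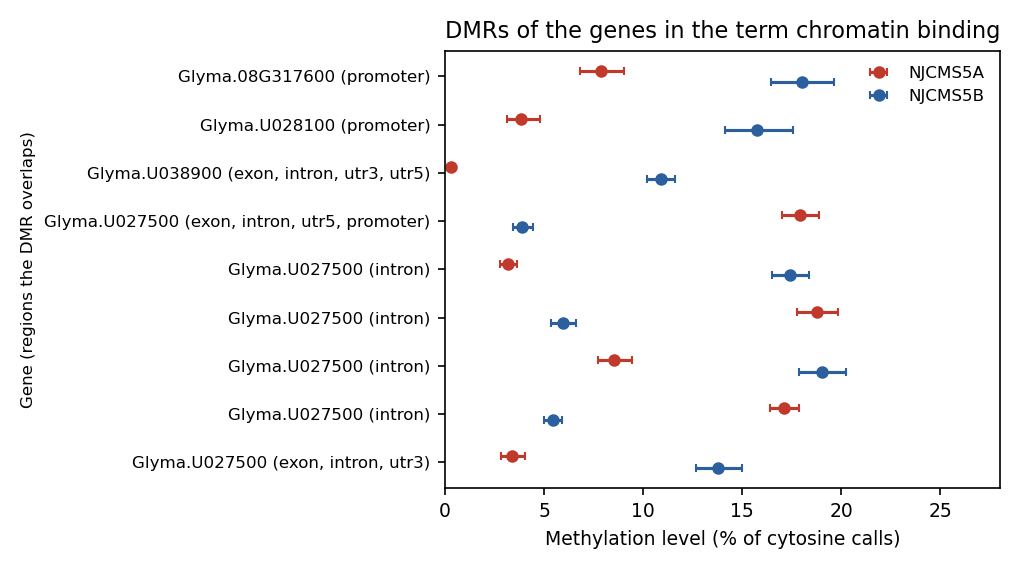
Methylation level (percent of cytosine calls, x axis) in NJCMS5A and NJCMS5B of each DMR of the 4 DMGs listed under chromatin binding, with the regions the DMR overlaps in brackets. Bars are 95% Wilson intervals, with 1 library per line. The MYB genes are the top rows, and Glyma.U027500 has 3 DMRs with the higher level in NJCMS5A and 3 with the higher level in NJCMS5B.

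Genes listed under regulation of transcription, the process in which MYB factors act, give a wider view. Of the 34 DMGs of this term, 23 had a promoter DMR. A promoter DMR lower in NJCMS5A was found in 15 of the 23, against 71.2% of all DMGs with a promoter DMR (235 of 330). In 13 of the 23 genes the promoter DMRs were lower only, in 8 higher only and in 2 of both directions. For all 330 genes these counts were 193, 95 and 42.

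The direction differed between chromosomes and scaffolds, on which the 2 MYB genes also differ. All 9 transcription genes on chromosomes were lower only in NJCMS5A, where 76 of 94 DMGs with a promoter DMR were lower only and 80.7% of the promoter DMRs were lower. Examples are Glyma.08G108600, on the chromosome of MYB97, with 1.17% in NJCMS5A and 11.2% in NJCMS5B, and Glyma.10G065500, with 9.06% in NJCMS5A and 20.2% in NJCMS5B. The 9 differences ran from −11.1 points at Glyma.10G065500 to −10.04 at Glyma.18G186900, and the −10.1 points of Glyma.08G317600 lay within their range. Such closeness is no trait of these genes, as every listed DMR differed by at least 10 points. The median size of the difference over all chromosome DMRs lower in NJCMS5A was 10.9 points.

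Of the 14 transcription genes on scaffolds, 4 were lower only, 8 higher only and 2 both. Of all 236 DMGs with a promoter DMR on scaffolds, 117 were lower only, 77 higher only and 42 both, and 58.4% of the promoter DMRs there were lower. Glyma.U034500, with 0.313% in NJCMS5A and 12.8% in NJCMS5B, was 12.5 points lower in NJCMS5A (difference −12.5), close to the −11.9 points of Glyma.U028100, but 40.7-fold lower against 4.09-fold. Glyma.U018600 was higher, with 20.2% in NJCMS5A and 2.29% in NJCMS5B. Glyma.U036900 had 1 promoter DMR at 11.8% in NJCMS5A and 38.3% in NJCMS5B, the largest decrease of the list in percentage points, and another at 31.8% in NJCMS5A and 15.3% in NJCMS5B. These counts describe the 2 libraries and were not tested between chromosomes and scaffolds.

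The study listed 6 other genes beside the MYB pair as potentially related to CMS, a list it chose on these libraries. Among the transcription factors of this list, Glyma.U015500, a bHLH protein, had a DMR over promoter, exon and intron at 35.7% in NJCMS5A and 17.2% in NJCMS5B, and another over exon and intron at 12.7% in NJCMS5A and 28.5% in NJCMS5B. Glyma.U040000, an AP2/B3-like factor, had a promoter DMR at 27.2% in NJCMS5A and 12.6% in NJCMS5B.

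Of the other 4, Glyma.U045200, a cysteine proteinase, had 18.5% in NJCMS5A and 42.2% in NJCMS5B over its promoter and exon. Glyma.16G195100, linked by the study to mitochondrial mRNA modification, had 1.86% in NJCMS5A and 18.1% in NJCMS5B in a DMR listed with its 5′UTR, which lies on scaffold_44 although the identifier names a chromosome. Glyma.06G248800, an ABC-2 type transporter, had 8.38% in NJCMS5A and 19.5% in NJCMS5B within the gene, levels close to those of the MYB97 promoter. Glyma.14G212600, a pentatricopeptide repeat protein, a family known for processing organelle RNA, had 11.1% in NJCMS5A and 0.506% in NJCMS5B.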

How the data were processed

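The authors aligned the clean reads of the 2 libraries to the Williams 82 genome with Bismark (0.12.5, per the submitters' processing notes), kept uniquely mapped reads and called DMRs with swDMR (windows of 1000 bp, steps of 100 bp, Fisher test, FDR of at most 0.05). The gene identifiers of the deposited GO table carry the release Wm82.a2.v1. In the deposited DMR table the methylation level is a fraction, the methylated share of all cytosine calls in the 3 contexts, without correction for unconverted cytosines. The authors' coverage is the mean depth per cytosine and is not normalized between libraries, with medians over the DMRs of 11.3 in NJCMS5A and 10.7 in NJCMS5B. The authors' own differences, ratios, p-values and enrichment results (GOseq, KOBAS) were not used; of the GO and KEGG tables only the lists of genes and their counts were. No sample column was left unused.

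Calls were recovered as the product of level, depth and cytosines, which gave whole numbers within 1e-06. For each DMR, Fisher's exact test was run two-sided on these calls, and p-values were adjusted (Benjamini-Hochberg) over all 3527 DMRs, at a threshold of 0.05. Regions that the authors did not call are not analysed here. Levels have 95% Wilson intervals and differences Newcombe intervals. The 2 MYB DMRs were compared by their log2 odds ratios, with a two-sided Woolf test and, added after seeing the data, Zelen's exact test (two-sided). The computations were tested on simulated data and used scipy 1.17.1, numpy 2.4.6 and pandas 2.3.3 in Python 3.11.15, with plots by matplotlib 3.10.9.

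Named genes are the MYB pair, those of the nearest annotated DMRs, those sharing a GO term given above, those of the study's CMS list and the 3 promoter DMRs nearest in level to each MYB gene. The members and lists were chosen with earlier results of these data known. No gene name of the reference table at hand matched the identifiers, so none was used. Alternatives counted each cytosine once, divided the calls by 10, assumed 1% unconverted cytosines in both libraries or in NJCMS5B only, required a depth of 10 or a difference of 20 points, kept chromosomes only or used Benjamini-Yekutieli adjustment. The comparison in percentage points and the joining of 3 neighbouring DMRs were added after seeing the data. Primer sequences come from the study's primer list; expression was not analysed here.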

Additional observations from a re-analysis of the deposited data

How the results depend on the processing

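The hypo-methylation of both MYB promoters in NJCMS5A kept its direction and its call under each of the 6 alternatives run on it, with differences of −10.4 to −9.33 points at Glyma.08G317600 (adjusted p of at most 0.011 by Fisher's exact test) and −12.0 to −11.1 points at Glyma.U028100 (at most 6.9e-04). The minimum depth of 10 could not change either difference, as both DMRs exceeded it in both libraries. Benjamini-Yekutieli adjustment alters only the adjusted p. Most listed DMRs also kept their direction and call, as all had already been called by the authors. Of all DMRs, 1967 passed as lower in NJCMS5A, against 1628 with each cytosine counted once and 1648 with calls divided by 10. For promoter DMRs these counts were 237, 217 and 219. The relative change at Glyma.U028100 was no longer called larger with each cytosine counted once (log2 odds ratio −0.76) or with calls divided by 10 (−0.84). Both settings rely less on the calls being independent by resting on fewer calls, so these features cannot be told apart. Against −0.86 with all calls (interval −1.31 to −0.40), the intervals widened to −2.35 to 0.83 and −2.29 to 0.61. The number of DMRs lower in NJCMS5A, 1967, was 919 at a minimum depth of 10 in each library, 666 with a difference of at least 20 points and 218 on chromosomes. That of promoter DMRs, 237, was 48 with at least 20 points and 67 on chromosomes, and that of transcription genes with a lower promoter DMR, 15, was 1 with at least 20 points and 9 on chromosomes. Neither MYB promoter reached 20 points. No paired analysis was possible because each line had 1 library.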
